A study of Mus musculus with 3 samples.

Results

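The 10 circadian clock genes Arntl, Clock, Npas2, Cry1, Per2, Per3, Nr1d1, Nr1d2, Dbp and Tef were followed across liver cells of 2 single-cell libraries. They were picked by name, as 10 of the 23860 genes that the tables of both libraries list together, and all 10 were found in both tables. Earlier results of these data were known at that choice, so counts of members beside all genes are descriptions and not tests. The libraries were made from cells of mouse liver captured on the BD Rhapsody system, in which each messenger RNA molecule is tagged with a unique molecular identifier (UMI), so that counts are molecules.

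One library, called the MCD-titled library here, carries MCD as its sample title, the study's name for a diet. The table of that library is matched to it by elimination. That table is named WT, for wild type, and its header names the library APAP0h. The study's text describes a library of wild-type C57BL/6J mice on a normal chow diet (NCD), so that the diet of these mice is not settled by the labels. The number of cells that the study's own limits on genes and mitochondrial UMIs left in this table lies close to the number stated for the NCD library. The other, the HFHC pool, holds wild-type and Chil1-/- mice (Chi3l1-/- in the study, a deletion in the whole animal) that ate a high-fat, high-cholesterol diet for 16 weeks. For this pool the same limits left more cells than the study states for both genotypes on this diet together. No column of its table tells the genotypes apart, so that the deletion could not be checked cell by cell, and the tag library of the same mice is not analysed here. The number, sex and age of the mice, and the time of day at which livers were taken, are given in no label. With 1 library a group, diet, genotype, capture, time of day and library cannot be told apart, no test was possible, and every difference below describes these 2 libraries. The study prepared non-parenchymal cells, while a label of the same samples names parenchymal cells.

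The circadian clock is a loop of transcription and repression that runs in nearly every cell and follows feeding strongly in the liver. ARNTL (BMAL1) pairs with CLOCK or NPAS2 and switches on genes that carry an E-box, among them those of the PER and CRY repressors, the nuclear receptors NR1D1 and NR1D2 (REV-ERBα and β) and the transcription factors DBP and TEF. The PER and CRY proteins then shut the pair down, NR1D1 and NR1D2 repress Arntl through ROR elements (ROREs), and DBP and TEF act at D-boxes. In mouse liver, transcripts of Arntl, Npas2 and Cry1 are known to peak from late night to early morning, and those of Nr1d1, Dbp, Tef and the Per genes during the day and evening. On this basis Arntl, Clock, Npas2 and Cry1 are called Arntl-like below and the other 6 genes Dbp-like. No sampling time is known, so levels of both sets were set side by side and no phase was estimated.

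The promoter windows of 4 members held short matches to elements of this loop. These are the members with a match among the windows that RefSeq (GRCm38.p6) gives for 9 of the 10 genes, running from 250 bases before to 50 bases after a start of transcription. The motifs searched on both strands were the E-box CACGTG, the RORE TAGGTCA or TGGGTCA, the D-box TTATGTAA or TTACGTAA, and the cAMP response element TGACGTCA, none of which contains another. The windows are printed 5' to 3' on the strand of the gene, with the match in capitals. They are the second Arntl window (chr7:113207261-113207560, plus strand, 1 RORE at offset 30 from the start), the Cry1 window (chr10:85185005-85185304, minus strand, 1 E-box at offset -60), the Per3 window (chr4:151044616-151044915, minus strand, 2 D-boxes at offsets -205 and -158) and the first Tef window (chr15:81802423-81802722, plus strand, 1 E-box at offset -127).
Arntl: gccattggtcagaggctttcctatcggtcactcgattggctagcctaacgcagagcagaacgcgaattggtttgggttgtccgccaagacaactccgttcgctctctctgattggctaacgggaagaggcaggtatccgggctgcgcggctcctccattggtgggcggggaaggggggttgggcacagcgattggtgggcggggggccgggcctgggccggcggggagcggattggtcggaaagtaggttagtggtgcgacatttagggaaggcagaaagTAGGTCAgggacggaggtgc
Cry1: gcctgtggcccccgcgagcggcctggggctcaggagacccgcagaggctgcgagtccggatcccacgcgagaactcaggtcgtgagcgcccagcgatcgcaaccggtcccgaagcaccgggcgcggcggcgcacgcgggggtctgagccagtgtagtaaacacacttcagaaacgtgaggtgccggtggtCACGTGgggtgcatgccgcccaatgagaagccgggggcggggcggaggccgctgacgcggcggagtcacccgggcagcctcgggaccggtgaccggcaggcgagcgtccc
Per3: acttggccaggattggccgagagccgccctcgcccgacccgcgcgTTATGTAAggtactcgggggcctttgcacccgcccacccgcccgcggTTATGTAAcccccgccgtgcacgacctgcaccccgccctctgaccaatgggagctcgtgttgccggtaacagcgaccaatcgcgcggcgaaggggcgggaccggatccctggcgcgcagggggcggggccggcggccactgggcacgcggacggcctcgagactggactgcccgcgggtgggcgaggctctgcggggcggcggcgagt
Tef: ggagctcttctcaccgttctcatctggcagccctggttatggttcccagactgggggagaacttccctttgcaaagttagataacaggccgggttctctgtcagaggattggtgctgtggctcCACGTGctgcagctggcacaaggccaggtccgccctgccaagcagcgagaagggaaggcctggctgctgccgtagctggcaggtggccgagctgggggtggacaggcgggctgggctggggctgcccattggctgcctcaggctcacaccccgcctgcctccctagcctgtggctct
Of the 4 Arntl-like genes, 1 held an E-box and 1 a RORE. Of the 5 Dbp-like genes with a window, 1 held an E-box, in both of its windows, and 1 held D-boxes. The Arntl-like genes had 7 windows and the Dbp-like genes 6, so few that these matches are not read as a trait of the members. Among all 32851 mouse windows, 7.15% held the E-box, 6.45% a RORE, 1.06% a D-box and 1.79% the cAMP response element. The windows of Clock, Npas2, Dbp, Nr1d1 and Nr1d2 held none of these letters, which describes these 300-base windows alone. Per2 had no entry.

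After filtering, 23346 cells of the MCD-titled library and 19625 cells of the HFHC pool remained, with medians of 1322.5 and 1622 UMIs a cell and of 5.95% and 1.11% mitochondrial UMIs. The cells fell into 29 clusters, which were named from marker genes and pooled into classes. A class name therefore stands for cells that are like that type, and 11 classes had at least 50 cells in each library. The files shared 756 of the 884736 possible cell indices, where 750.4 would be shared by indices drawn at random. Hepatocytes made up 30.3% of the cells of the MCD-titled library and 63.8% of the HFHC pool, with 7076 and 12518 cells in 5 clusters. Each of the 12 hepatocyte markers, Alb and Cps1 among them, was detected in 4 of these clusters and 11 of the 12 in the fifth. Hepatocytes were the shallowest of the 11 classes in both libraries, with medians of 521 and 847.5 UMIs a cell and of 1.31% and 0.383% mitochondrial UMIs. Levels below are CPM, the summed UMIs of a gene in a class scaled to a fixed total for all genes, with exact Poisson 95% intervals. Differences are log2 ratios of CPM in the HFHC pool to CPM in the MCD-titled library with 1 UMI added to each count, given where both libraries together held at least 20 UMIs, with exact conditional 95% intervals. All intervals cover counting error only, not the spread between mice or captures.

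Hepatocytes of the 2 libraries differed most in the Dbp-like genes. Dbp, Nr1d1, Nr1d2 and Tef were higher in the HFHC pool by 2.65 to 8.22-fold, whereas Arntl, Npas2 and Cry1 were lower, each by less than 2-fold. In cells of at least 2000 UMIs alone, a limit chosen after seeing the data, Npas2 was at 0.10 and Arntl at -0.16 on the log2 scale. Of the 10 members, 4 were more than 2-fold higher in the pool, where 6.79% of all 12159 genes measured were, and 0 were more than 2-fold lower, where 9.96% were. The median log2 ratio was -0.51 over the 4 Arntl-like genes and 1.53 over the 6 Dbp-like genes, a gap of -2.04 (-0.029 over the Arntl-like genes and a gap of -1.74 in cells of at least 2000 UMIs), beside a median of 0.03 over all genes.

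Positions of genes are those of GENCODE M21 on GRCm38. Among the activators, Arntl (chr7:113207465-113314126, plus strand) held 195 UMIs (37.3 CPM) in hepatocytes of the MCD-titled library and 507 UMIs (29.8 CPM) in those of the pool. Its log2 ratio was -0.33 (-0.56 to -0.08), so that the difference exceeded counting error but stayed small. Clock, the main partner of ARNTL (chr5:76209868-76304792, minus strand), was at 72.4 and 67.9 CPM (379 and 1156 UMIs). Its log2 ratio of -0.10 had an interval that spanned 0 (-0.26 to 0.08), and the libraries could not be told apart in this gene at this depth. Npas2, which can stand in for Clock (chr1:39193731-39363236, plus strand), was at 13 and 7.63 CPM (68 and 130 UMIs), a log2 ratio of -0.78 (-1.20 to -0.32) that turned to 0.10 in cells of at least 2000 UMIs. Other annotated models overlap these genes and Tef by 193 to 4176 bases, namely the antisense genes Gm45355 at Arntl and Gm17597 at Tef, the pseudogenes Gm20428 and Gm3617 at Npas2 and Ube2n-ps1 at Clock, and the unclassified Gm43658 on the strand of Clock.

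Of the repressors, Cry1 (chr10:85131700-85185064, minus strand) went with the activators. It was at 44.0 CPM in the MCD-titled library and 27.1 CPM in the pool (230 and 462 UMIs), and its log2 ratio was -0.70 (-0.93 to -0.46). Per2, whose protein pairs with the CRY proteins (chr1:91415982-91459324, minus strand), was low in both libraries at 8.03 and 6.70 CPM (42 and 114 UMIs). Its log2 ratio of -0.28 (-0.78 to 0.28) spanned 0, so Per2 was not among the Dbp-like genes that stood higher in the pool. Per3 (chr4:151003652-151044665, minus strand) rested on 4 and 28 UMIs (0.764 and 1.64 CPM), and its interval ran from -0.41 to 3.08 around 0.83, too wide to place it. Per3 lies wholly inside Camta1 on the same strand (41014 shared bases), and reads from both genes may be hard to assign. Camta1 itself had a log2 ratio of -0.48 in hepatocytes.

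The widest gap was that of Nr1d1, a heme-binding repressor of Arntl (chr11:98767932-98775333, minus strand). It stood at 22.4 CPM in hepatocytes of the MCD-titled library (117 UMIs) against 185 CPM in the pool (3156 UMIs), an 8.22-fold difference (log2 ratio 3.04, 2.78 to 3.33). Its close relative Nr1d2 (chr14:18204054-18239127, minus strand) was at 20.6 and 65.4 CPM (108 and 1114 UMIs), 3.14-fold apart (1.65, 1.38 to 1.96). Nr1d1 shares 1075 bases of its end with Thra on the opposite strand, and the sources do not say whether counting used strand. Thra went the other way, at a log2 ratio of -0.93.

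The PAR bZIP factors also stood higher in the pool. Dbp, a direct E-box target of the ARNTL pair (chr7:45705088-45710203, plus strand), was at 4.01 CPM in the MCD-titled library and 17.7 CPM in the pool (21 and 301 UMIs). This 4.22-fold difference (2.08, 1.5 to 2.85) rested on few molecules in the MCD-titled library. Tef (chr15:81802421-81826863, plus strand) was at 12.2 and 32.8 CPM (64 and 559 UMIs), a 2.65-fold difference (1.40, 1.05 to 1.82). Dbp overlaps Sphk2 on the opposite strand over 737 bases, and Sphk2 had a log2 ratio of 0.73.

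**Figure D1:**
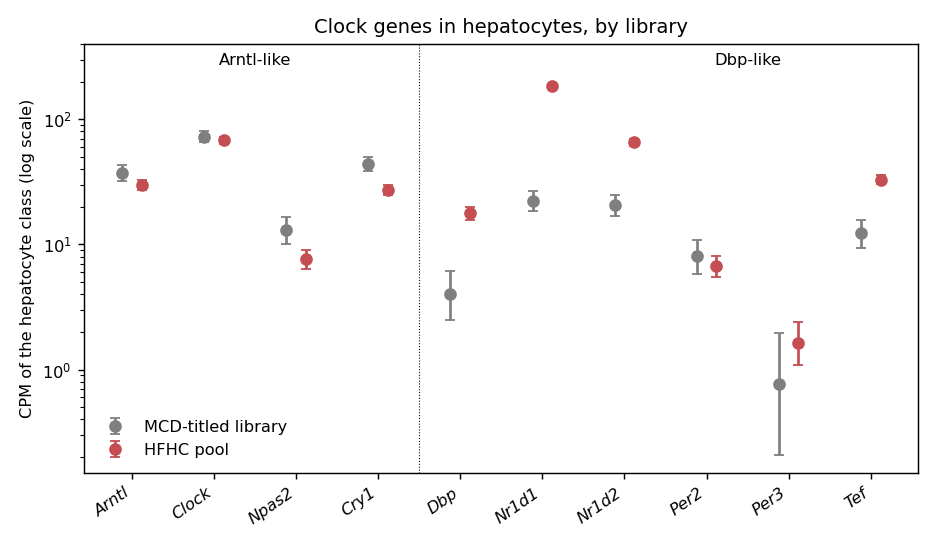
CPM of the 10 clock genes in hepatocytes on a log axis, grey for the MCD-titled library and red for the HFHC pool, with bars for exact Poisson 95% intervals. The Dbp-like genes Dbp, Nr1d1, Nr1d2 and Tef stand apart with the pool higher, Nr1d1 at 22.4 and 185 CPM. The Arntl-like genes differ less, with Cry1 and Npas2 lower in the pool and their intervals apart.

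Summed over the members, the Arntl-like set was the larger in the MCD-titled library and, through Nr1d1, the Dbp-like set in the pool. Dbp-like genes gave 29.0% (26.5 to 31.6) of the clock UMIs of hepatocytes in the MCD-titled library, 356 against 872 Arntl-like UMIs. In the pool they gave 70.0% (69.0 to 71.1), 5272 against 2255. Without Nr1d1 the ratio of Dbp-like to Arntl-like UMIs was 0.274 in the MCD-titled library and 0.938 in the pool, in place of 0.408 and 2.34. The Arntl-like set was then the larger in both libraries. Within each of the 5 hepatocyte clusters the share was also higher in the pool, at 52.9 to 75.9% against 25.9 to 33.6% in the MCD-titled library.

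The same comparison was made inside each hepatocyte cluster, since the clusters differed in size between the libraries. The largest in the MCD-titled library was cluster 3 (2605 and 1106 cells), led by Mup20 and Cyp2f2. The largest in the pool was cluster 4 (191 and 3353 cells), whose median depth was 0.292 of the median of its libraries. Arntl and Cry1 were lower in the pool in 5 of 5 clusters, Npas2 in 4 of the 4 with enough UMIs and Clock in 4 of 5. Nr1d1 was higher in 5 of 5, at log2 ratios of 1.65 to 3.04, and Nr1d2, Tef and Dbp each in the 4 clusters other than cluster 4. In cluster 4 the MCD-titled library held 0 to 6 UMIs of any member, too few to give a direction for these 3 genes (2, 2 and 0 UMIs, and 99, 51 and 25 in the pool). The intervals of Arntl, Cry1, Npas2 and Clock also spanned 0 in that cluster, and that of Nr1d1 lay above it. In cluster 1 (1272 and 3174 cells), Dbp had 0 UMIs in the MCD-titled library and 175 in the pool. Against a floor of 3 UMIs for that library, it was at least 8.72-fold higher in the pool.

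Nr1d1 and Cry1 had the same directions in clusters led by genes of different zones of the liver lobule. Cluster 6 was led by Cyp2c29, Cyp2e1 and Cyp1a2, enzymes of hepatocytes near the central vein, and cluster 3 by genes that include Cyp2f2, an enzyme of the portal side. Nr1d1 was at 30.7 CPM in the MCD-titled library and 189 CPM in the pool in cluster 6, and at 17.8 and 144 CPM in cluster 3. Cry1 was at 27.5 and 12.4 CPM in cluster 6 and at 35.9 and 22.5 CPM in cluster 3.

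**Figure D2:**
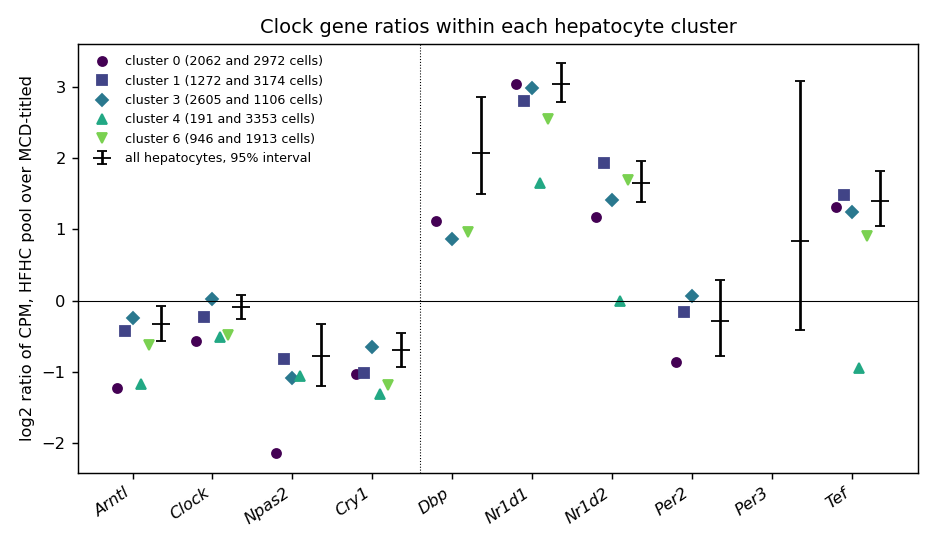
Log2 ratios of CPM, pool over MCD-titled library, for each clock gene in each of the 5 hepatocyte clusters (symbols, with cells of the MCD-titled library and the pool in the legend) and in all hepatocytes (black, 95% counting interval). With symbols drawn where both libraries together held at least 20 UMIs and neither was at 0, Nr1d1 lies above 0 in 5 of 5 clusters and Cry1 below 0 in 5 of 5.

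To see whether the difference was one of many cells or of few, hepatocytes were thinned to 2000 UMIs each, which left 320 cells of the MCD-titled library and 2247 of the pool and dropped 6756 and 10271 shallower ones. A Nr1d1 UMI was then found in 3.75% (1.95 to 6.46) and 29.7% (27.8 to 31.6) of cells, and in 1.43% and 14.7% before thinning. Nr1d2 (2.50 and 12.4%), Tef (1.88 and 6.50%) and Dbp (0.313 and 3.43%) were also found in a larger share of thinned cells of the pool, with intervals that did not overlap. For the genes that were lower in the pool by summed UMIs, the thinned shares had overlapping intervals. They were 5.31 and 5.16% for Arntl, 1.25 and 1.38% for Npas2 and 7.19 and 4.81% for Cry1, and Clock was at 9.69 and 11.3%. Among the other 10 classes of the pool, the thinned share for Nr1d1 ran from 0% of 138 plasma cells to 8.74% of 595 endothelial cells. In plasma cells it was 3.597% of 139 before thinning. These shares count hepatocyte RNA in other cells too, which at the ratio of the hepatocyte markers would make up 74.7% of the Nr1d1 UMIs of endothelial cells and 95.97% of those of plasma cells, so they are not read as shares of cells that express the gene. In thinned hepatocytes of the pool, 20.8% had an Arntl-like UMI, 43.3% a Dbp-like UMI and 8.23% both, where independence of the sets would give 9.02%. Across the 11 classes and both libraries, Spearman's rho between the UMIs of the sets over single cells ran from -0.10 to 0.14, too weak in counts this sparse to order cells along a cycle.

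Other hand-written lists, also chosen with earlier results of these data known, were measured in the same hepatocytes. Of 18 further clock genes, 16 were measured, with a median log2 ratio of 0.14. Those more than 2-fold higher in the pool included Bhlhe40 (41.1 and 84.6 CPM), a repressor at the E-box, and its relative Bhlhe41. Bhlhe41 had 0 UMIs in the MCD-titled library and 40 in the pool, at least 4.10-fold higher against a floor of 3 UMIs. Per1, which answers to glucocorticoids as well as to the clock, was the 1 gene of this list more than 2-fold lower (14.3 and 5.46 CPM, log2 ratio -1.40). Rora, Hlf and Nfil3 were at -0.61, 0.50 and 0.09, and Cry2 was at 0.80 (0.46 to 1.20), so that Cry1 and Cry2 lay on opposite sides of 0.

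Of 16 clock output genes of liver, 2 were more than 2-fold higher in the pool and 3 lower, with a median of 0.27, beside 6.79 and 9.96% of all genes, so that the counts lay within 2 genes of these shares. Rgs16, a regulator of G protein signalling in hepatocytes, had 19 UMIs (3.63 CPM) in the MCD-titled library and 1870 (110 CPM) in the pool, a 28.7-fold difference. The cell cycle kinase gene Wee1, an E-box target, had a log2 ratio of 1.83 (1.06 to 2.98). Noct, a night-time phosphatase gene, was lower in the pool at -2.48, as were Lpin1, a gene of triglyceride synthesis, at -1.30 and the deubiquitinase gene Usp2 at -1.12.

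Genes that answer to hormones, feeding and handling were read against the same shares of all genes, 6.79% higher and 9.96% lower. Of 10 glucocorticoid-responsive genes, 4 were more than 2-fold lower in the pool (Tsc22d3 at -2.25, Ddit4 at -1.87, Per1 and Dusp1) and 0 higher, with a median of -0.70. Of 14 fasting and feeding genes, 4 were lower, all of them induced in fasting (Igfbp1 at -3.01, Pck1 at -2.05, G6pc at -1.86 and Tat at -1.62), and 0 were higher, with a median of -0.28. Not all fasting-induced genes of the list went this way, since Cpt1a was at 0.85 (0.69 to 1.01) and Angptl4 at -0.13, with an interval that spanned 0. Of 15 immediate-early genes, 7 were more than 2-fold higher (Fosb at 1.90 and Egr1 at 1.87 among them) and 0 lower, with a median of 0.94. The part of feeding state, hormones, cell handling or depth in the clock values was not tested.

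Outside hepatocytes the gap between the sets was narrower, though the medians did not cover the same genes in every class. They covered 4 Arntl-like and 6 Dbp-like genes in hepatocytes, T cells and endothelial cells, and only 3 and 3 in NK cells or ILC1. In 7 classes at least 2 Arntl-like and 3 Dbp-like genes were measured, and the Arntl-like median lay above the Dbp-like median in 1 of them, monocytes or monocyte-derived macrophages (0.36 and 0.26). This count of classes moved in 9 of 15 alternatives of processing, between 0 and 2. The gap between the medians was -1.15 in endothelial cells, -0.52 in Kupffer cells, -0.47 in NK cells or ILC1, -0.35 in B cells and -0.25 in T cells. As a gauge of counting error, the medians of the members' interval bounds were taken for each set. They overlapped between the sets in Kupffer cells, NK cells or ILC1, B cells, T cells and monocytes, so that no order is read there. As counted, they stood apart in hepatocytes (-0.75 to -0.20 and 1.21 to 2.41) and endothelial cells (-0.25 to 0.59 and 0.66 to 1.74). As counted, the share of Dbp-like UMIs was higher in the pool in 11 of 11 classes, by as little as 37.9 against 39.7% in monocytes and, outside hepatocytes, by as much as 35.4 against 55.2% in plasmacytoid dendritic cells. With hepatocyte RNA subtracted in proportion to the hepatocyte markers, as described further on, the share in monocytes turned to 38.5 against 34.1%.

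**Figure D3:**
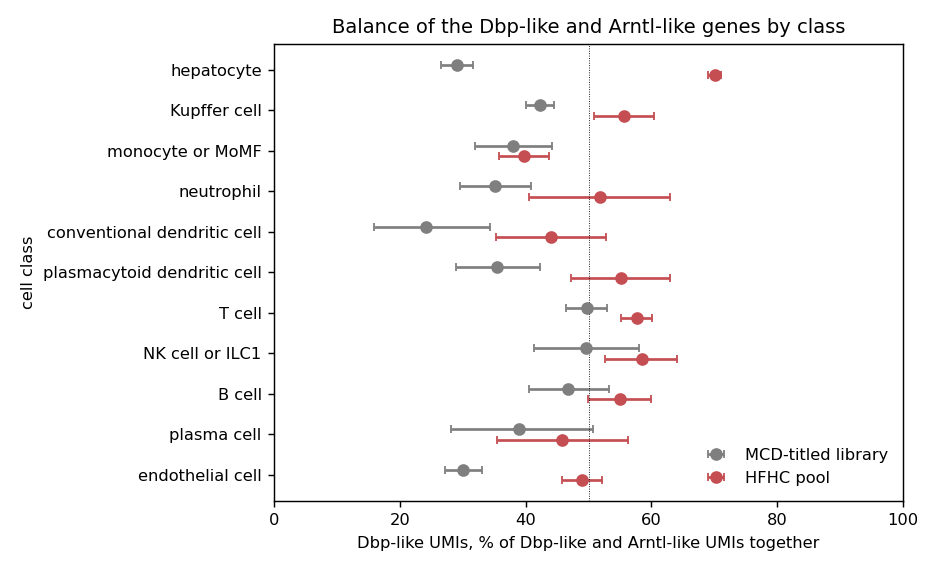
Dbp-like UMIs as a percent of Dbp-like and Arntl-like UMIs together in each of the 11 classes, grey for the MCD-titled library and red for the HFHC pool, with exact binomial 95% intervals that cover counting error only. Hepatocytes show the widest move, from 29.0 to 70.0%, and monocytes the narrowest, from 37.9 to 39.7%.

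Gene by gene and as counted, Nr1d1, Nr1d2 and Tef had log2 ratios above 0 in every class with enough UMIs, and the other members did not. After subtraction of hepatocyte RNA, the log2 ratio of Nr1d1 was below 0 in 5 of 6 classes other than hepatocytes. Nr1d2 (7 classes) and Tef (8 classes) stayed above 0, by as little as 0.017 and 0.019 on the log2 scale. Subtracted values are given without intervals and can rest on few UMIs, since NK cells held 3 and 25 of Nr1d1 before subtraction. Their directions are therefore not settled. As counted, Nr1d1 was above 0 in 7 of 7 classes, in 5 by more than 2-fold, and Nr1d2 in 8 of 8, in 2 by more than 2-fold. Tef was above 0 in 9 of 9, in 4 by more than 2-fold. Intervals lay above 0 in 5 classes for Nr1d1, 4 for Nr1d2 and 5 for Tef. The limit of 20 UMIs could be met mainly through the pool, as for Nr1d1 in NK cells (3 and 25 UMIs), so these counts are not independent of it. The share of all genes that were more than 2-fold higher was 5.74% in Kupffer cells, 5.02% in monocytes, 12.5% in neutrophils, 6.51% in conventional and 5.14% in plasmacytoid dendritic cells, 8.64% in T cells, 6.07% in NK cells, 6.63% in B cells, 8.75% in plasma cells and 12.8% in endothelial cells. The share more than 2-fold lower was 5.72% in Kupffer cells, 6.28% in monocytes, 6.07% in neutrophils, 5.54% in conventional and 4.15% in plasmacytoid dendritic cells, 4.9% in T cells, 4.72% in NK cells, 4.25% in B cells, 11.5% in plasma cells and 5.67% in endothelial cells. Cry1 was lower in 9 of 11 classes and Clock higher in 7 of 11, with 0 of either past 2-fold. The interval lay below 0 in 3 classes for Cry1 and above 0 in 1 class for Clock.

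Endothelial cells had, as counted, 4 of 10 members more than 2-fold higher in the pool, Dbp (4.81 and 11.8 CPM), Nr1d1 (22.3 and 57.6 CPM), Nr1d2 (10.5 and 25.7 CPM) and Tef (6.36 and 16.2 CPM). The hepatocyte markers in these cells moved with them, from 4.05 to 23.2% of their hepatocyte level, and after subtraction 0 members were past 2-fold and Nr1d1 turned to -0.54. As counted, Arntl, at 32.8 and 32.9 CPM, and Clock, at 62.9 and 65.8 CPM, were level within counting error. No hepatocyte RNA was taken from these values, so they are not read as equal levels in endothelial cells themselves. In Kupffer cells, the resident macrophages of the liver, Nr1d1 was at 5.13 and 12.9 CPM (86 and 50 UMIs, log2 ratio 1.34, 0.79 to 1.85), and Arntl at 19.04 and 12.6 CPM (319 and 49 UMIs, -0.57, -1.06 to -0.16). These were the 2 members whose intervals left out 0 in Kupffer cells. In monocytes Clock was the 1 such member (0.44, 0.03 to 0.89).

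T cells differed from hepatocytes in Dbp. Dbp was at 15.2 CPM in T cells of the MCD-titled library and 9.50 CPM in the pool (86 and 89 UMIs), a log2 ratio of -0.68 (-1.12 to -0.23). B cells and plasmacytoid dendritic cells also had less Dbp in the pool, at -0.84 and -0.68, with intervals that spanned 0. Npas2 in T cells, at 7.41 and 1.17 CPM (42 and 11 UMIs), gave the lowest value of any member in any class, -2.57 (-3.76 to -1.68), where 4.9% of all genes were more than 2-fold lower. Most T cells of the MCD-titled library lay in cluster 7, led by Tcrg-C1 and Cxcr6, and most of the pool in cluster 8, led by Foxp3 and Cd8b1. Within cluster 7 the log2 ratio of Npas2 was -1.51 (-3.08 to -0.47), and Dbp was at -0.39 in cluster 7 and -0.74 in cluster 8, both with intervals that spanned 0.

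In dendritic cells Tef was higher in the pool. It was at 3.102 and 11.5 CPM in conventional dendritic cells (6 and 21 UMIs) and at 10.6 and 29.5 CPM in plasmacytoid dendritic cells (25 and 50 UMIs). Its log2 ratios were 1.74 (0.54 to 3.49) and 1.45 (0.76 to 2.23), both past 2-fold. Arntl in plasmacytoid dendritic cells, at 7.19 and 2.95 CPM, rested on 17 and 5 UMIs. Its value of -1.11 had an interval that spanned 0 (-3.08 to 0.21), 4.15% of all genes there were more than 2-fold lower, and in conventional dendritic cells it was at 5.17 and 5.49 CPM (10 UMIs in each).

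**Figure D4:**
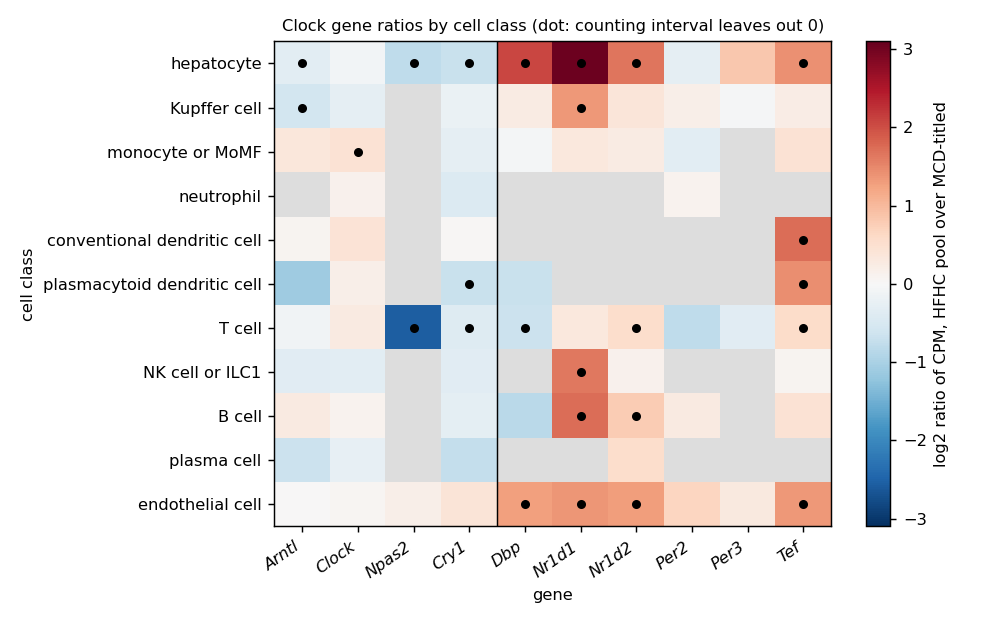
Log2 ratios of CPM, pool over MCD-titled library, for each clock gene (columns, Arntl-like left of the line) in each class (rows), red for higher in the pool, blue for lower, grey for under 20 UMIs in both libraries together, and a dot where the 95% counting interval leaves out 0. As counted, Nr1d1, Nr1d2 and Tef are red wherever measured, and Dbp is red in hepatocytes and endothelial cells but blue in T cells, B cells and plasmacytoid dendritic cells.

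Hepatocyte transcripts were present in every other class, and more so in the pool. The summed level of the 12 hepatocyte markers in the other 10 classes was 0.916 to 4.05% of that in hepatocytes in the MCD-titled library and 2.15 to 23.2% in the pool. It was higher in the pool in all but Kupffer cells (2.84 and 2.76%) and highest in endothelial cells (4.05 and 23.2%). Clusters of a class differed in this level. In endothelial cells it was 2.34 and 11.8% in cluster 10 and 7.14 and 36.5% in cluster 11. Kupffer cells had 2.86 and 2.54% in cluster 2, but 2.08 and 9.996% in the small cluster 23 (52 and 16 cells). The subtraction below took a single proportion for each class and library, so differences between clusters are not allowed for. If clock transcripts of hepatocytes came along in the proportion of each class, they would give part of the Nr1d1 UMIs counted there. This part would be 39.4 to 95.97% in the other classes of the pool (median 74.7%) and 3.57 to 78.2% in the MCD-titled library (median 13%). For the other members the medians in the pool were lower, from 2.71% for Per3 to 17.2% for Dbp and 46.0% for Npas2. Npas2 had 0 to 2 UMIs in 8 of the 10 classes of the pool, and in monocytes and B cells (1 UMI each) this proportion came to 162 and 133% of what was counted, more than was there to subtract.

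Taking that part away changed the picture for Nr1d1 most. It was more than 2-fold higher in the pool in 4 of 6 classes other than hepatocytes as counted and in 0 after subtraction. Its log2 ratio was then below 0 in 5 of the 6, down to -1.39 in monocytes, and above 0 in Kupffer cells (0.81). These values have no intervals and rest on few UMIs in some classes, so that their directions are not settled. In endothelial cells the log2 ratio of Nr1d1 went from 1.36 to -0.54, that of Dbp from 1.28 to 0.73 and that of Tef from 1.33 to 0.55. Tef remained more than 2-fold higher in conventional and plasmacytoid dendritic cells, at 1.71 and 1.43. Dbp was at -0.79 in T cells, again without an interval. The share of Dbp-like UMIs was then higher in the pool in 9 of the 10 other classes and lower in monocytes (38.5 and 34.1%). It became 30.1 and 33.6% in endothelial cells, 39.2 and 40.1% in plasma cells and 43.1 and 53.9% in Kupffer cells.

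**Figure D5:**
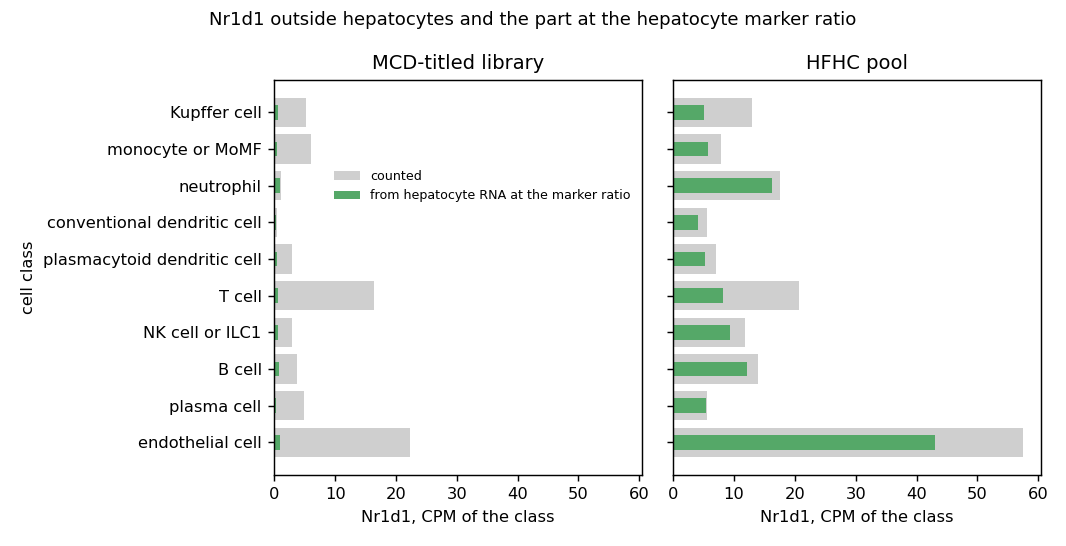
CPM of Nr1d1 in the 10 classes other than hepatocytes as counted (grey) and the part that hepatocyte RNA would give at the ratio of the hepatocyte markers (green), for the MCD-titled library (left) and the HFHC pool (right). In the pool the green part reaches 39.4 to 95.97% of the grey bar.

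Levels of single members across the 11 classes are a description of each library. Hepatocytes had the highest CPM in 11 of 20 combinations of member and library. No share of all genes is set beside this count, so it is not read as a trait of clock genes. Some of these ranks were within counting error, as for Arntl in the MCD-titled library (37.3 CPM, and 32.8 CPM in endothelial cells). Clock and Npas2 were highest there in both libraries, and so was Nr1d1, though in the MCD-titled library hepatocytes and endothelial cells were level at 22.4 and 22.3 CPM. For Clock, hepatocytes and endothelial cells had overlapping intervals and stood apart from the next class, at 72.4, 62.9 and 32.3 CPM in the MCD-titled library. Per2 was highest in neutrophils in both libraries, at 17.2 CPM (63 UMIs) and 17.5 CPM (15 UMIs), apart from the next class in the MCD-titled library (8.03 CPM in hepatocytes) but not in the pool. Neutrophils also had Cry1 at 40.4 and 29.2 CPM, next to hepatocytes at 44.0 and 27.1 CPM. Dbp was highest in T cells of the MCD-titled library and in hepatocytes of the pool, at 15.2 and 17.7 CPM. Their intervals overlapped those of B cells (12.3 CPM) in the MCD-titled library and of endothelial cells (11.8 CPM) in the pool. Nr1d2 and Tef were highest in NK cells or ILC1 in the MCD-titled library, at 32.8 and 23.9 CPM, and in hepatocytes in the pool, at 65.4 and 32.8 CPM. In NK cells of the MCD-titled library these rested on 33 and 24 UMIs, and their intervals overlapped those of T cells for Nr1d2 and of B cells for Tef. In the pool the interval of Tef in hepatocytes overlapped those of plasmacytoid dendritic cells (29.5 CPM) and NK cells (26.0 CPM). Per3 did not exceed 4.13 CPM in any class, and most neighbours in its order overlapped.

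Across the 22 points of 11 classes and 2 libraries, profiles were compared by Pearson's r of log2(CPM + 1), where points of a library share its depth and its free RNA. Arntl went with Nr1d2 (0.80) and Clock (0.76) and not with Cry1 (0.02), and its r with Dbp was 0.44. Nr1d2 went with Tef (0.73) and Nr1d1 (0.71). Among 10923 genes with at least 500 UMIs, those most like Arntl were A230050P20Rik (0.88), Zfp326 (0.83), Rbms2 (0.83), Igip (0.82) and Isca1 (0.82). Those most like Dbp were Mterf4 (0.72), Jade1 (0.72), Tti2 (0.72), Mettl22 (0.71) and Klhl21 (0.69).

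The other lists were also followed across the 11 classes, in which 5.02 to 12.8% of all genes were more than 2-fold higher and 4.15 to 11.5% lower. Immediate-early genes had medians above 0 in 11 of 11 classes (0.94 to 2.47), and 105 of 157 values of a gene in a class were more than 2-fold higher in the pool and 1 lower. Glucocorticoid-responsive genes had medians below 0 in 11 of 11 classes (-1.77 to -0.18), with 45 of 102 values more than 2-fold lower and 5 higher. The 18 further clock genes had medians from -0.19 to 0.47, with 24 of 138 values more than 2-fold higher and 7 lower. Clock output genes had medians above 0 in 11 of 11 classes (0.025 to 0.67), with 28 of 130 values more than 2-fold higher and 5 lower. Fasting and feeding genes went both ways, with medians below 0 in 8 classes and above 0 in 3. Of their 111 values, 23 were more than 2-fold higher and 24 lower. The values of all these lists are as counted, with no hepatocyte RNA subtracted. Hepatocyte transcripts were present in every other class, so values outside hepatocytes may in part be theirs. How large that part is was not tested for these lists. Bhlhe40 was higher in the pool in 11 of 11 classes, in 10 by more than 2-fold. Per1 was more than 2-fold lower in 4 of 11 and higher, by less than 2-fold, in 6. Its interval lay above 0 in NK cells or ILC1 (0.79, 0.17 to 1.55), B cells (0.65, 0.26 to 1.08) and T cells (0.30, 0.037 to 0.59). Rgs16 was more than 2-fold higher in the 6 classes where it was measured. The limit on UMIs of both libraries together could be met through the pool, as in monocytes (0 and 35 UMIs) and B cells (0 and 22). This count of classes is therefore not independent of that limit. In endothelial cells Rgs16 had 0 and 102 UMIs, at least 50.8-fold against a floor of 3 UMIs. Its level there in the pool was 26.2 CPM, beside 110 CPM in hepatocytes, and hepatocyte markers in the same cells stood at 23.2% of their hepatocyte level.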

How the data were processed

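The authors made both tables of counts, per the file headers, with the BD Rhapsody WTA Analysis Pipeline 1.10.1 on GRCm38 with GENCODE M19. The deposited values are UMI counts per cell and gene after error correction, not normalized, for cells the pipeline called. The submitters' processing notes name GRCm38 and Seurat. Whether counting used strand is not given in the sources used here. Gene spans came from GENCODE M21 (GRCm38).

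Cells with 200 to 4000 genes and at most 25% mitochondrial UMIs were kept. The files held 53720863 UMIs (MCD-titled, 30734 cells) and 71981673 UMIs (HFHC pool, 21601 cells). Libraries were normalized with SCTransform (sctransform 0.4.2, 4000 variable genes), integrated with Seurat 5.3.0 under R 4.3.3 (reciprocal PCA, 30 components, with Matrix 1.6.5 and SeuratObject 5.2.0) and clustered (20 neighbours, resolution 0.8, seed 42). A cluster took the type whose markers scored highest, at least 1 on the log2 scale, if 10% of its cells or more held a UMI of each of 3 or more markers. No name was given if its 10 leading genes held more markers of another type, or if the cluster was shallow and they held none of its own. These thresholds were set after the clusters were seen. Of 29 clusters, 1 stayed unnamed, and the stellate, cholangiocyte and basophil classes had under 50 cells in a library and were not compared. Doublets, called by Scrublet (scanpy 1.11.5) at 8.17% and 2.00% of kept cells, stayed in.

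UMIs were summed per class, since cells are not replicates, and scaled to CPM (Python 3.11.15, numpy 2.4.6, scipy 1.17.1, pandas 2.3.3). The computation was tested on simulated data. Subtraction of hepatocyte RNA took each gene's hepatocyte level times the ratio of the summed markers from every other class. Named genes are the members, the hand-written lists, and for Arntl and Dbp the 5 genes of highest Pearson correlation. Values of 1 gene of the lists are not reported here. Members and lists were chosen with earlier results of these data known. In all, 12 alternatives were planned and 3 were chosen after seeing the data.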

Additional observations from a re-analysis of the deposited data

Results flagged for a closer look

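Dbp was set apart because its counting intervals lay on opposite sides of 0 in different classes of the same libraries. In hepatocytes it was higher in the HFHC pool (log2 ratio 2.08) and in T cells lower (-0.68), a gap of 2.75. Endothelial cells (1.28) and T cells were 1.95 apart. With 1 library a group, neither difference was tested. The markers of hepatocytes stood at 4.405% of their hepatocyte level in T cells of the pool and at 23.2% in endothelial cells. After subtraction of that part, Dbp was at -0.79 in T cells and 0.73 in endothelial cells. These values have no intervals, so that their directions are not settled. Within the clusters that held most T cells of each library, Dbp was below 0 as counted, with intervals that spanned 0.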

How the results depend on the processing

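In hepatocytes the Dbp-like median stayed between 1.33 and 2.09 and the gap between the sets between -2.64 and -1.74 over 14 alternatives. The Arntl-like median was below 0 in all 14 (-0.59 to -0.029). It moved only with cells of at least 2000 UMIs, chosen after seeing the data, to -0.029, where Clock was at 0.26, Npas2 at 0.10, Cry1 at -0.37, Per2 at -0.93 and Nr1d1 at 3.46. Leaving out the shallow cluster 4, also chosen afterwards, gave -0.57 and 1.61. Means of each cell's own CPM gave 1.47 for Dbp and 2.75 for Nr1d1, and thinning to 1000 UMIs gave -0.63 for Arntl and 2.09 for Nr1d2. The cause of these moves was not tested.

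The count of classes with the Arntl-like median above the Dbp-like one, 1 of 7, depended on the processing. It was 0 of 10 with no upper limit on genes, 0 of 7 at a resolution of 0.3, 0 of 8 without integration, 0 of 9 with classes from each cell's own markers, 0 of 5 after thinning, 0 of 7 with means of cells' CPM and 0 of 4 with at least 100 UMIs. It was 2 of 6 without called doublets and 2 of 7 after subtraction of hepatocyte RNA, chosen after seeing the data. Hepatocytes had the highest level in 7 of 20 combinations without integration, in place of 11.

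No paired analysis was possible because each group was 1 library. Depth limits Per3 everywhere, most members in neutrophils, conventional dendritic cells and plasma cells, and several in plasmacytoid dendritic cells.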
